A study of Homo sapiens with 15 samples.

Results

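The 10 DNA glycosylases of base excision repair (BER) UNG, SMUG1, TDG, MBD4, OGG1, MUTYH, NTHL1, NEIL1, NEIL2 and NEIL3 were followed in the transcriptome of LNCaP cells, an established, androgen-sensitive human prostate cancer line. They were chosen by symbol, as the glycosylases of this pathway. All 10 had a row among the 17272 genes of the expression table, and all 10 passed the filter on low values that left 17046 genes to be tested. Every library came from the same line, cultured for 2 days in medium with charcoal-stripped serum and then treated for 22 h, and all cells received the synthetic androgen R1881 at 1 nM. In 10 libraries R1881 was given with the solvent DMSO, and in 5 libraries with 2 µM enzalutamide, an antiandrogen drug. Polyadenylated RNA was sequenced, and the values below are read counts scaled to library size by the authors (CPM). The question addressed by this comparison was which repair genes respond when androgen signalling is blocked.

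DNA glycosylases start BER. Each recognises a small set of damaged or misplaced bases and cuts the bond between the base and the sugar, which leaves an abasic site that later enzymes open, fill and seal. UNG, SMUG1, TDG and MBD4 act on uracil, thymine mispaired with guanine or oxidised cytosine derivatives, OGG1 and MUTYH deal with 8-oxoguanine and the adenine mispaired with it, and NTHL1 and the NEIL family remove oxidised pyrimidines. Prostate cancer cells of luminal type depend on androgen signalling, which is why a block of this signalling is used as therapy.

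Enzalutamide was associated with lower transcript levels of 5 glycosylases (UNG, TDG, OGG1, NEIL2 and NEIL3) and higher levels of 2 (SMUG1 and NEIL1), while MBD4, MUTYH and NTHL1 did not pass the test (limma, Benjamini-Hochberg adjusted p under 0.05 over all genes). The background was broad, since 62.5% of all genes tested passed by the same rule, 32.7% lower and 29.8% higher, so that the number of glycosylases called was not in itself a result about them. NEIL1 rose 2.31-fold and NEIL3 fell 2.15-fold (ratios of mean CPM), and these were the widest changes among the 10. The treatments did not overlap in any library for UNG, TDG, NEIL2 and NEIL3, all lower, and for SMUG1 and NEIL1, both higher, where 37.2% of all genes did not overlap, 20.1% lower and 17.1% higher. The median log2 fold change of the 10 genes was -0.14, compared with -0.01 over all genes tested. The summed level of the 10 transcripts was 325.5 ± 5.88 CPM (SD, n = 10) with R1881 + DMSO and 287.9 ± 5.10 CPM (SD, n = 5) with R1881 + enzalutamide. The values of all genes also summed to less with enzalutamide, 985580 to 1008992 per library against 1053406 to 1078567 with R1881 + DMSO. The part of this scaling in the lower glycosylase sum was not tested. In bulk RNA, fewer cells of one kind and less RNA per cell cannot be told apart.

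The promoters of NEIL3 and NEIL1 are shown because these transcripts moved furthest and in opposite directions, and the downstream one of the UNG starts because it held more of the searched motifs than any other glycosylase promoter. Each runs 5′ to 3′ from 250 bases before to 50 bases after a RefSeq start (GRCh38.p14), and capitals mark TTTGCCGC (E2F-type), TTTGAA (the cell cycle homology region, TTCAAA on the other strand) and CACGTG (E-box).
NEIL3, chr4:177309624-177309923, plus strand: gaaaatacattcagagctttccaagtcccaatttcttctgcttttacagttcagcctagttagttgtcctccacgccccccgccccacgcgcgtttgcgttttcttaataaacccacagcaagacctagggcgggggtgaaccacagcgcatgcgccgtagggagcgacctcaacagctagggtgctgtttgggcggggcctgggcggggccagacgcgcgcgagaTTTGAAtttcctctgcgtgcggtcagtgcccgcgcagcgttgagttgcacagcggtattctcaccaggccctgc
UNG, downstream start, chr12:109097922-109098221, plus strand: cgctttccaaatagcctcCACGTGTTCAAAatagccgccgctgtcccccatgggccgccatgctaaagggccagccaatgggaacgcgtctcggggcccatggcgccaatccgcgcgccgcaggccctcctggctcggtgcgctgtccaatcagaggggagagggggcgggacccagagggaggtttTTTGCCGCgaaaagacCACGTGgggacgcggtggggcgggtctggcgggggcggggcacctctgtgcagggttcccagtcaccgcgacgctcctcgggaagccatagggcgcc
NEIL1, canonical start, chr15:75346789-75347088, plus strand: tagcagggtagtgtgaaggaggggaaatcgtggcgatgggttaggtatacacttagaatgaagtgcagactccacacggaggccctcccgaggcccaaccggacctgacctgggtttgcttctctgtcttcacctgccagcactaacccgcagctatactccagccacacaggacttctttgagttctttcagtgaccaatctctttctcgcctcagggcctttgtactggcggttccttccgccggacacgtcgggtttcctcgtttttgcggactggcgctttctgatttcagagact

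RefSeq promoters were at hand for 8 of the 10 genes, with 13 starts in all, and those of SMUG1 and NEIL2 were not analysed here. Both strands were searched for 4 E2F-type motifs (TTTCCCGC, TTTGGCGC, TTTCGCGC and TTTGCCGC), for the cell cycle homology region TTTGAA, the E-box CACGTG and the CCAAT box, and for a strict and a relaxed androgen response element. Among the glycosylases, an E2F-type motif was found only at the downstream UNG start, 575 bases from the canonical start, where TTTGCCGC began at position -63. Any of the 4 E2F-type motifs occurred in 3.31% of the 35116 RefSeq promoters, and TTTGCCGC in 0.607%. TTTGAA began at position -24 of NEIL3, at -226 of the downstream UNG start and at -214 of one of the MUTYH starts, compared with 15.2% of all promoters. CACGTG was present at positions -232 and -47 of the downstream UNG start, at -80 of TDG and at -42 of NTHL1, and in 7.26% of all promoters. At the downstream UNG start the upstream CACGTG and the reverse TTTGAA lie next to each other without overlap. None of the 3 NEIL1 starts held an E2F-type motif, TTTGAA or CACGTG, and NEIL1 had CCAAT at position -54 of its canonical start, a motif of 34.6% of promoters. This box did not set NEIL1 apart, since it was also found at starts of UNG, TDG, MBD4, OGG1, MUTYH and NEIL3. Of the genes searched, only NTHL1 lacked it. Neither androgen response element was found in the 13 windows, and the relaxed one occurred in 0.390% of all promoters. A match is a run of letters in this window and does not show binding.

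**Figure D1:**
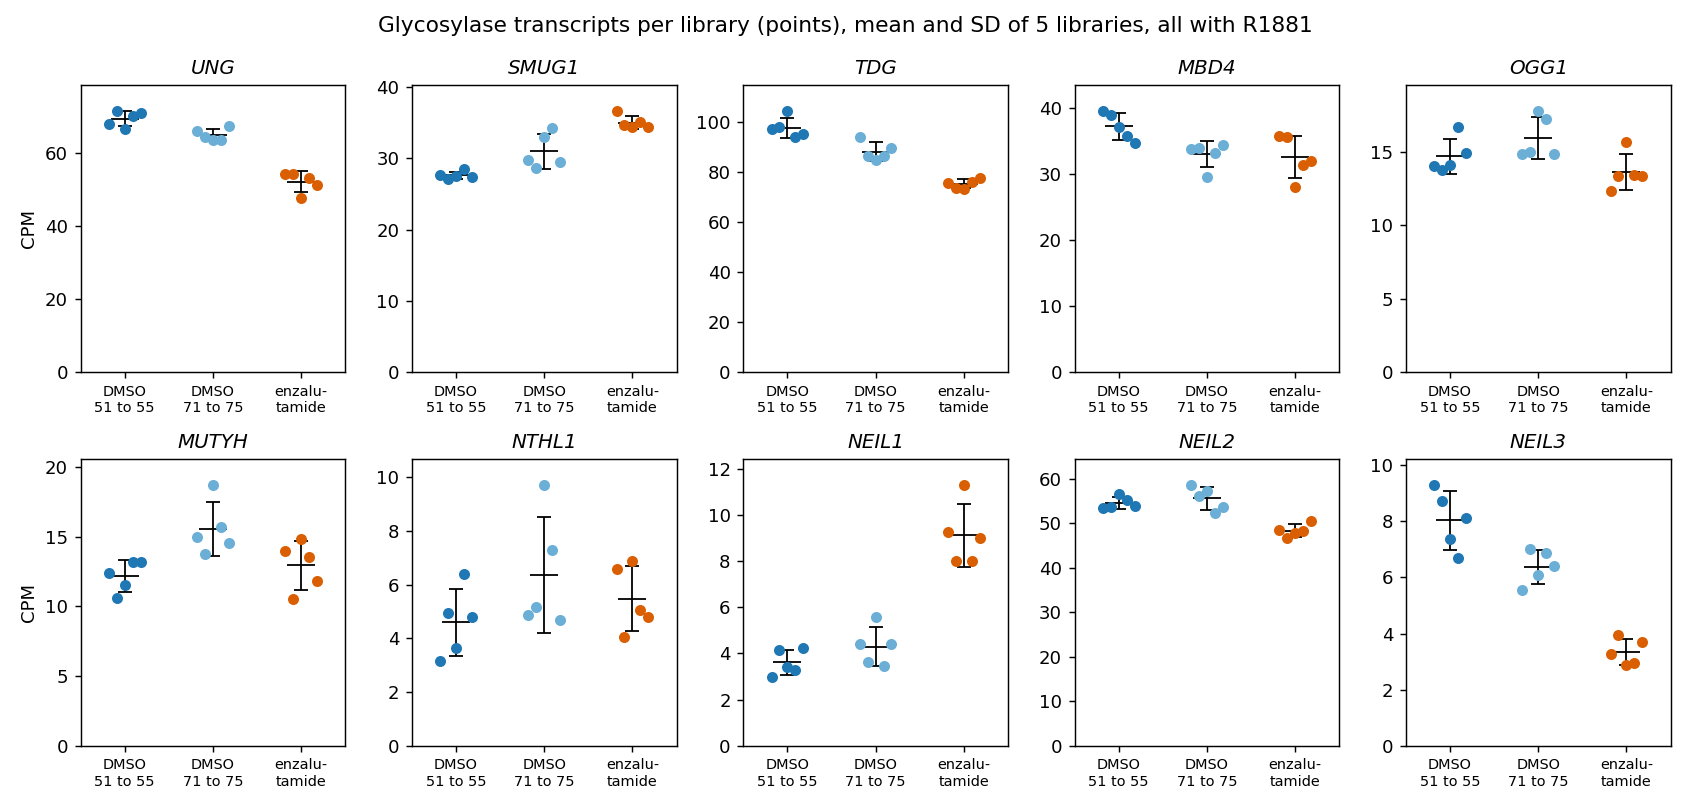
CPM of each glycosylase (vertical axis, from 0) in every library (points), by library number for R1881 + DMSO (51 to 55 and 71 to 75) and for R1881 + enzalutamide, with the mean and SD of 5 libraries. NEIL1 lies between 8.00 and 11.3 CPM with enzalutamide and between 3.0 and 5.58 CPM without it, whereas the points of MBD4, OGG1, MUTYH and NTHL1 overlap between the treatments.

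Among the glycosylases that act on uracil, UNG and TDG fell and SMUG1 rose. UNG (chr12:109097597-109126725, plus strand, GRCh38, 7 exons in the canonical transcript) encodes the main uracil-DNA glycosylase, with a nuclear and a mitochondrial form made from alternative starts that gene-level values do not separate. With R1881 + DMSO, UNG ranged from 63.7 to 71.6 CPM with a median of 67.1 (n = 10). With enzalutamide the 5 libraries held 54.4, 47.7, 54.4, 51.3 and 53.4 CPM. All 5 lay below the lowest R1881 + DMSO library, and the median was lower by 20.5% (percent change -20.5%). The log2 fold change was -0.36 (SE 0.04, limma adjusted p = 1.27e-07), and UNG kept this direction and its call in all 30 alternative analyses.

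TDG (chr12:103965822-103988874, plus strand) removes thymine from mispairs with guanine and also oxidised forms of 5-methylcytosine, and so takes part in DNA demethylation. It was the most abundant glycosylase by CPM, with a range of 84.5 to 104.2 and a median of 93.8 CPM with R1881 + DMSO (n = 10). The enzalutamide libraries held 73.4, 73.3, 75.3, 77.6 and 76.0 CPM. The treatments did not overlap, and the log2 fold change was -0.30 (SE 0.04, limma adjusted p = 6.09e-06). A processed pseudogene of TDG on chromosome 12, TDGP1, had a row of its own, at 8.26 ± 0.988 CPM (SD, n = 10) with DMSO and 6.14 ± 0.455 CPM (SD, n = 5) with enzalutamide. The sources used here do not give how reads shared between TDG and TDGP1 were assigned.

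SMUG1 (chr12:54121277-54189008, minus strand) is a second uracil glycosylase, which also removes 5-hydroxymethyluracil. It moved opposite to UNG. Its R1881 + DMSO libraries ranged from 27.1 to 34.2 CPM with a median of 28.5 (n = 10), and the enzalutamide libraries held 34.7, 34.5, 36.7, 34.4 and 35.1 CPM. The gap between the treatments was narrow, since the highest R1881 + DMSO library, at 34.2, lay just under the lowest enzalutamide library, at 34.4. The log2 fold change was 0.26 (SE 0.05, limma adjusted p = 0.000303), and the median was higher by 21.5%.

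MBD4 (chr3:129430947-129440179, minus strand) joins a methyl-CpG-binding domain to a glycosylase that acts on thymine and uracil opposite guanine. It ranged from 29.6 to 39.6 CPM with a median of 34.6 with R1881 + DMSO (n = 10). The enzalutamide libraries held 35.6, 28.1, 35.8, 32.0 and 31.4 CPM, of which only 1 lay below all R1881 + DMSO libraries. The log2 fold change of -0.11 (SE 0.06) did not pass the test (limma adjusted p = 0.149, 95% interval -0.24 to 0.03). MBD4 passed it against R1881 + DMSO libraries 51 to 55 alone (log2 -0.20, adjusted p = 0.0128), after removal of the GC trend (log2 -0.14, adjusted p = 0.00623) and without R1881 + DMSO replicate 6 (log2 -0.14, adjusted p = 0.0435). Its value was smaller, at -0.02, against libraries 71 to 75 alone (adjusted p = 0.79) and with library totals set to 1000000 (adjusted p = 0.82), and -0.04 without the 8 libraries most tilted by GC content (adjusted p = 0.542). On the other strand MBD4 shares 279 exon bases with IFT122, which fell from 27.2 ± 1.55 to 21.0 ± 0.877 CPM (SD, n = 10 and 5, log2 -0.37, limma adjusted p = 1.07e-06).

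Neither of the glycosylases that limit mutation by 8-oxoguanine moved beyond a marginal call. OGG1 (chr3:9749944-9788219, plus strand), which excises 8-oxoguanine opposite cytosine, ranged from 13.7 to 17.8 CPM with a median of 14.9 with R1881 + DMSO (n = 10). With enzalutamide OGG1 was at 13.4, 15.7, 12.3, 13.4 and 13.4 CPM. In 4 of the 5 libraries it was below every R1881 + DMSO library, but replicate 2 lay within their range. The log2 fold change of OGG1 was -0.16 (SE 0.07, limma adjusted p = 0.0459). This call was lost in 17 of 30 alternatives, 11 of them single libraries left out, with adjusted p from 0.0123 to 0.394 over all alternatives and a negative value throughout. The single libraries were R1881 + DMSO replicates 1, 2, 3, 4, 5, 6 and 8 and enzalutamide replicates 1, 3, 4 and 5, without which the adjusted p lay between 0.0517 (without R1881 + DMSO replicate 3) and 0.143 (without enzalutamide replicate 3). OGG1 shares 2175 exon bases on the opposite strand with CAMK1, or 24.9% of its exon bases. CAMK1 fell from 51.3 ± 2.48 to 27.8 ± 1.76 CPM (SD, n = 10 and 5, log2 -0.87, limma adjusted p = 4.81e-13), and TADA3, which shares 356 bases, fell as well (log2 -0.32, adjusted p = 0.000378). The libraries were made with a stranded kit, but the sources used here give no strand setting for the counting. The part of these neighbours in the OGG1 value was not tested.

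MUTYH (chr1:45329163-45340893, minus strand) removes adenine mispaired with 8-oxoguanine. The R1881 + DMSO libraries ranged from 10.6 to 18.7 CPM with a median of 13.5 (n = 10), and the enzalutamide libraries held 10.5, 14.8, 14.0, 11.9 and 13.5 CPM. The groups overlapped over most of their range, and the log2 fold change was -0.09 (SE 0.10, limma adjusted p = 0.468, 95% interval -0.31 to 0.13). MUTYH was the only glycosylase that differed between the series of R1881 + DMSO libraries, with 12.2 ± 1.12 CPM in libraries 51 to 55 and 15.6 ± 1.91 CPM in libraries 71 to 75 (SD, n = 5 each, log2 0.34, SE 0.09, limma adjusted p = 0.0457). Accordingly, its change with enzalutamide was 0.08 against the former (adjusted p = 0.472) and -0.26 against the latter (adjusted p = 0.036). MUTYH shares 491 exon bases with TOE1 on the opposite strand, and 31.6% of its exon bases belong also to an annotated readthrough gene on its own strand that has no row in the table. TOE1 fell from 21.2 ± 1.12 to 14.9 ± 0.802 CPM (SD, n = 10 and 5, log2 -0.50, limma adjusted p = 2.60e-08).

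The glycosylases for oxidised pyrimidines diverged most. NTHL1 (chr16:2039815-2047866, minus strand), the homologue of bacterial endonuclease III, had a median of 4.91 CPM with R1881 + DMSO, between 3.18 and 9.72 (n = 10). The enzalutamide libraries held 4.05, 6.88, 6.60, 4.81 and 5.06 CPM, all within that range. NTHL1 varied most between libraries of one treatment, with a coefficient of variation of 34.8% with R1881 + DMSO, and rested on a median of 110 reads. Its log2 fold change was 0.04 (SE 0.18, limma adjusted p = 0.870, 95% interval -0.34 to 0.42), an interval that includes changes as large as those of TDG and SMUG1.

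NEIL1 (chr15:75346955-75357115, plus strand) removes oxidised pyrimidines and ring-opened purines, also in single-stranded DNA ahead of replication. It ranged from 3.0 to 5.58 CPM with a median of 3.88 with R1881 + DMSO (n = 10). With enzalutamide NEIL1 held 8.01, 11.3, 9.28, 8.98 and 8.00 CPM, and each of these was above every R1881 + DMSO library. The mean rose from 3.95 ± 0.757 to 9.11 ± 1.35 CPM (SD, n = 10 and 5). The log2 fold change was 1.12 (SE 0.11, limma adjusted p = 2.70e-08), and 437 of the 17046 genes had a higher one. On the log2(CPM + 0.5) scale NEIL1 was called with more than a 2-fold change and NEIL3, at -0.996, lay just short of 2-fold because of the pseudocount (-1.08 with a pseudocount of 0.1), where 3.26% of all genes were at least 2-fold higher and 4.19% at least 2-fold lower. Its value was 1.22 against libraries 51 to 55 and 1.01 against libraries 71 to 75 of R1881 + DMSO. The median was 75 reads with R1881 + DMSO and 204 with enzalutamide. NEIL1 shares 1832 exon bases, 26.4% of its exon bases, with MAN2C1 on the opposite strand. MAN2C1 did not pass the test, at 34.2 ± 4.73 and 36.6 ± 4.59 CPM (SD, n = 10 and 5, log2 0.10, limma adjusted p = 0.329).

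NEIL2 (chr8:11769639-11787345, plus strand), which prefers lesions in bubbles and transcribed DNA, showed a small decrease. Its R1881 + DMSO libraries ranged from 52.4 to 58.7 CPM with a median of 54.5 (n = 10), and the enzalutamide libraries held 46.7, 47.8, 48.5, 50.5 and 48.3 CPM. The groups did not overlap. The log2 fold change was -0.19 (SE 0.04, limma adjusted p = 0.000127), the smallest among the 6 glycosylases without overlap, and NEIL2 had the lowest coefficient of variation of the 10 with R1881 + DMSO, 3.65%. With library totals set to 1000000 the log2 fold change was -0.09 (adjusted p = 0.0238).

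NEIL3 (chr4:177309874-177362936, plus strand) acts on lesions in single-stranded DNA and on crosslinks at replication forks, and its transcript is known mainly from dividing cells. The R1881 + DMSO libraries ranged from 5.54 to 9.30 CPM with a median of 6.94 (n = 10). With enzalutamide NEIL3 held 3.96, 2.88, 3.27, 3.68 and 2.94 CPM, so that the highest of these libraries was below the lowest R1881 + DMSO library. The percent change of the median was -52.8%, and the means were 7.21 ± 1.18 and 3.35 ± 0.466 CPM (SD, n = 10 and 5). On the log2(CPM + 0.5) scale the change was -0.996 (SE 0.11, limma adjusted p = 5.42e-08), with -1.15 against libraries 51 to 55 and -0.84 against libraries 71 to 75. Depth was low here too, with a median of 136.5 reads with R1881 + DMSO and 75 with enzalutamide.

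**Figure D2:**
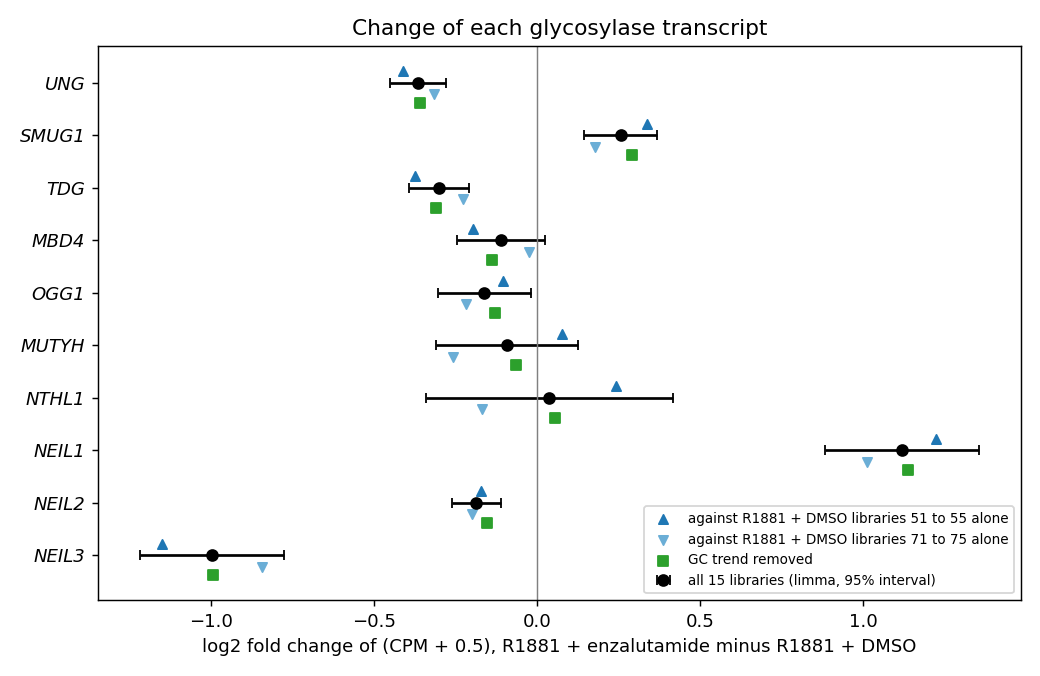
Log2 fold change of log2(CPM + 0.5), R1881 + enzalutamide minus R1881 + DMSO (horizontal axis), for each glycosylase, with the limma estimate and its 95% interval (black), each R1881 + DMSO series alone (triangles) and the GC trend removed (squares). NEIL1 at 1.12 and NEIL3 at -0.996 lie furthest from 0, and the markers of MUTYH and NTHL1 fall on both sides of it.

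Differences between paired transcripts were taken as the change of their ratio within each library, which depends on the library scaling only through the pseudocount. The 7 pairs were set by shared substrate or family, and p-values are from two-sided exact permutation tests over 3003 regroupings, adjusted over the 7 pairs. The ratio of NEIL1 to NEIL3 reversed, from a log2 ratio of -0.79 ± 0.393 (SD, n = 10) to 1.32 ± 0.318 (SD, n = 5), a difference of 2.11 (exact permutation p = 0.000333, the smallest these regroupings can give, adjusted p = 0.000583). NEIL1 to NEIL2 shifted by 1.30 and NTHL1 to NEIL1 by -1.08, and UNG to SMUG1 by -0.62, each with the same exact permutation p and adjusted p. In all 4 of these pairs no enzalutamide library overlapped with an R1881 + DMSO library. For UNG to SMUG1, NEIL1 to NEIL2 and NEIL1 to NEIL3 this followed from the single-gene values, which already separated the treatments in opposite directions. The tests of those pairs therefore give the size of the shift and no further support for opposite directions. TDG to MBD4 changed by -0.19 (exact permutation p = 0.00333, adjusted p = 0.00466), with overlap between the groups. No difference was detected between UNG and TDG (-0.06, exact permutation p = 0.151, adjusted p = 0.176) or between OGG1 and MUTYH (-0.07, exact permutation p = 0.429, the same after adjustment).

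**Figure D3:**
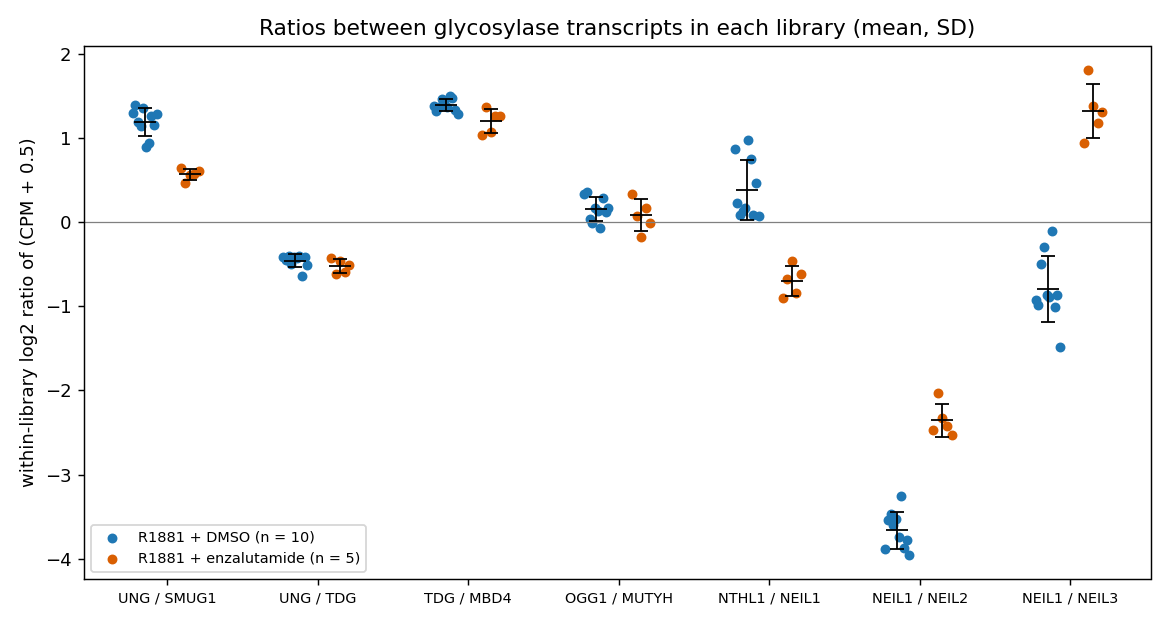
Log2 ratio of (CPM + 0.5) of paired glycosylases within each library (vertical axis) for 7 pairs, with R1881 + DMSO in blue (n = 10) and R1881 + enzalutamide in orange (n = 5), bars showing mean and SD. The groups are apart for UNG / SMUG1, NTHL1 / NEIL1, NEIL1 / NEIL2 and NEIL1 / NEIL3, and NEIL1 / NEIL3 moves from below 0 to above 0.

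Levels between genes were compared per kilobase of the canonical transcript. With R1881 + DMSO the order was UNG (32.9 CPM per kb), TDG (29.1), NEIL2 (20.4), MBD4 (14.7), SMUG1 (10.9), OGG1 (9.40), MUTYH (8.12), NTHL1 (5.31), NEIL3 (3.05) and NEIL1 (1.07). Over the 10 libraries the ranges of neighbours overlapped between UNG and TDG and from MBD4 down to NEIL3, whereas NEIL2 stood apart from both neighbours and NEIL1 lay below all NEIL3 libraries. With enzalutamide NEIL1 at 2.46 ± 0.364 CPM per kb stood above NEIL3 at 1.42 ± 0.197 CPM per kb (SD, n = 5), without overlap, and no other neighbours changed places. The ranges of UNG and TDG, of MBD4 and SMUG1, and of neighbours from OGG1 to NTHL1 overlapped there. The order depended on the length used. Per kilobase of the union of annotated exons, with R1881 + DMSO it was TDG (19.0 CPM per kb), NEIL2 (16.4), UNG (12.8), MBD4 (10.5), SMUG1 (4.86), NEIL3 (2.47), MUTYH (2.39), NTHL1 (2.25), OGG1 (1.75) and NEIL1 (0.570), so that UNG moved from the first place to the third and OGG1 to the ninth. On this scale the mean of NEIL1 was above that of NEIL3 with enzalutamide, at 1.31 and 1.15 CPM per kb, but their libraries overlapped.

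Most tested genes of the later steps of BER were lower. Of 30 listed genes (the alkyladenine glycosylase MPG and the enzymes and factors that open, fill and seal the abasic site), 29 were tested, of which 20 were lower, 2 higher and 7 not called. That is 69.0% lower and 6.9% higher, where 32.7% of all genes tested were lower and 29.8% higher. The median log2 fold change of the listed genes was -0.32 against -0.01 over all genes. Long-patch repair, which replaces several bases with replication proteins, accounted for 14 of the 20, out of 16 genes (87.5% lower). Outside it the share was smaller. Of the 7 tested genes of the single-strand break scaffold and end cleaning, 3 were lower (42.9%) and 1 higher (14.3%). The flap endonuclease FEN1 fell from 76.3 ± 3.67 to 29.6 ± 2.20 CPM (SD, n = 10 and 5, log2 -1.35, SE 0.05, limma adjusted p = 3.48e-16). DNA ligase LIG1 (log2 -0.82, adjusted p = 1.34e-08) and the sliding clamp PCNA (log2 -0.81, adjusted p = 8.52e-12) came next. Among short-patch genes, the gap-filling polymerase POLB fell (log2 -0.44, adjusted p = 1.40e-06), as did the ligase LIG3 (log2 -0.23, adjusted p = 1.94e-05) and the break sensor PARP1 (log2 -0.31, adjusted p = 2.71e-09). Of the abasic endonucleases, APEX2 fell from 48.6 ± 2.65 to 31.5 ± 0.976 CPM (SD, n = 10 and 5, log2 -0.62, limma adjusted p = 7.38e-11). APEX1, abundant at 295.6 ± 8.24 and 283.9 ± 7.03 CPM (SD, n = 10 and 5), did not pass the test (log2 -0.06, limma adjusted p = 0.0798). The scaffold XRCC1 (log2 -0.08, adjusted p = 0.449) and MPG (log2 -0.27, adjusted p = 0.167) did not pass it either. Higher were the end-cleaning phosphodiesterase TDP1 (log2 0.50, SE 0.04, limma adjusted p = 4.05e-09) and the polymerase POLL (log2 0.38, SE 0.05, adjusted p = 4.00e-06).

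**Figure D4:**
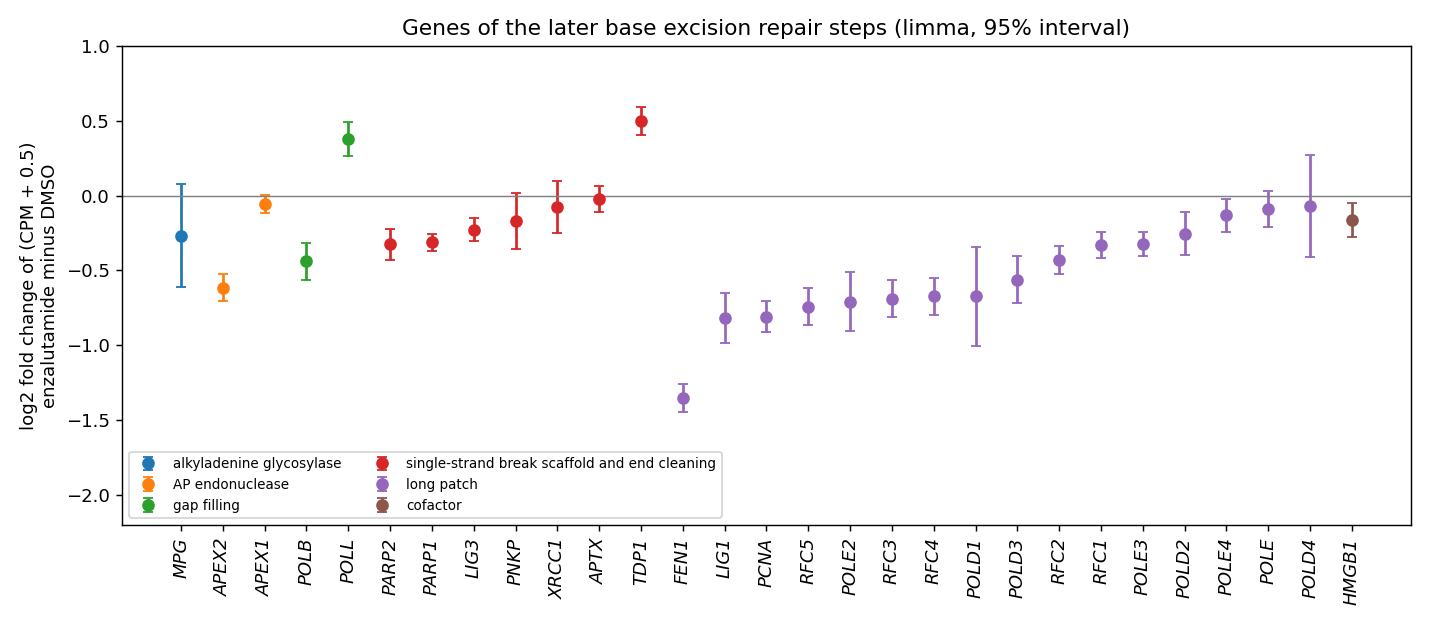
Log2 fold change of log2(CPM + 0.5), enzalutamide minus DMSO (vertical axis), with its 95% limma interval for the 29 tested genes of the later BER steps, coloured by step. FEN1 is lowest at -1.35, and TDP1 and POLL are the genes whose intervals lie above 0.

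Other measures moved together with the treatment. Of 34 S phase genes that hold neither a glycosylase nor a gene of the later steps, 33 were lower and 1 was not called (limma, adjusted p under 0.05). That is 97.1% lower, where 32.7% of all genes tested were lower. The S phase genes had a median log2 fold change of -0.83, against -0.01 over all genes. The part of cell cycle state in the UNG and NEIL3 values was not tested. The androgen-induced genes KLK3, KLK2, TMPRSS2 and FKBP5 were lower in all enzalutamide libraries, with log2 fold changes between -4.99 and -3.55, which matched the labels. The luminal prostate markers KRT8, KRT18, HOXB13 and FOLH1 had a row each, HOXB13 at 283.0 ± 27.1 CPM with R1881 + DMSO and 316.2 ± 22.9 CPM with enzalutamide (SD, n = 10 and 5). Of 12 markers of basal, stromal, leukocyte, endothelial and neuroendocrine cells, 4 had a row (KRT14, COL1A1, VWF and SYP), none above 12.3 CPM in any library. Of these 4, 2 were lower and 2 higher, where 62.5% of all genes tested were called in either direction. The total of recovered reads per library was 15830745 to 24316740 with R1881 + DMSO and 21188661 to 25416052 with enzalutamide.

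The R1881 + DMSO libraries carried numbers 51 to 55 and 71 to 75 in their labels, and the enzalutamide libraries 81 to 85. Since no series holds both treatments, a difference between series and the effect of enzalutamide cannot be told apart. Between the 2 series of R1881 + DMSO, 3.17% of all genes differed (limma, adjusted p under 0.05), and of the glycosylases MUTYH alone did. TDG (97.6 ± 4.05 and 88.0 ± 3.74 CPM, SD, n = 5 each, log2 -0.15, limma adjusted p = 0.0627), MBD4 (37.3 ± 2.05 and 33.0 ± 1.97 CPM, log2 -0.17, adjusted p = 0.0885) and NEIL3 (8.03 ± 1.04 and 6.38 ± 0.602 CPM, log2 -0.31, adjusted p = 0.0885) came near the threshold. UNG, SMUG1, TDG, NEIL1, NEIL2 and NEIL3 passed the test, in the same direction, against either series alone. The study's text calls the sequenced samples biological replicates, but the labels do not say that libraries came from separate cultures. The p-values measure the spread between these libraries, which may be technical in part.

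Within a treatment, the deviations of most glycosylases from library to library were related to the mean GC content of their annotated transcripts. For each library, Spearman's rho between the deviation of a gene from its treatment mean and its GC content was taken over 10702 genes, and it ranged from -0.70 to 0.79. Across the 15 libraries, the deviations of the 5 genes above 55% GC correlated with this library value at r = 0.88 for NTHL1 (63.1% GC), 0.49 for NEIL1 (62.9%), 0.85 for MUTYH (60.4%), 0.87 for OGG1 (57.4%) and 0.67 for SMUG1 (55.5%). Those of the other 5 correlated at r = -0.05 for NEIL2 (54.2%), -0.58 for UNG (50.9%), -0.79 for MBD4 (45.0%), -0.72 for TDG (43.6%) and -0.64 for NEIL3 (42.2%). The sign went with GC content, but the size did not follow it in order. These are descriptions, and the sources used here do not say which libraries were prepared together. When the GC trend of each library was removed, UNG, SMUG1, TDG, OGG1, NEIL1, NEIL2 and NEIL3 kept their direction and their call.

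**Figure D5:**
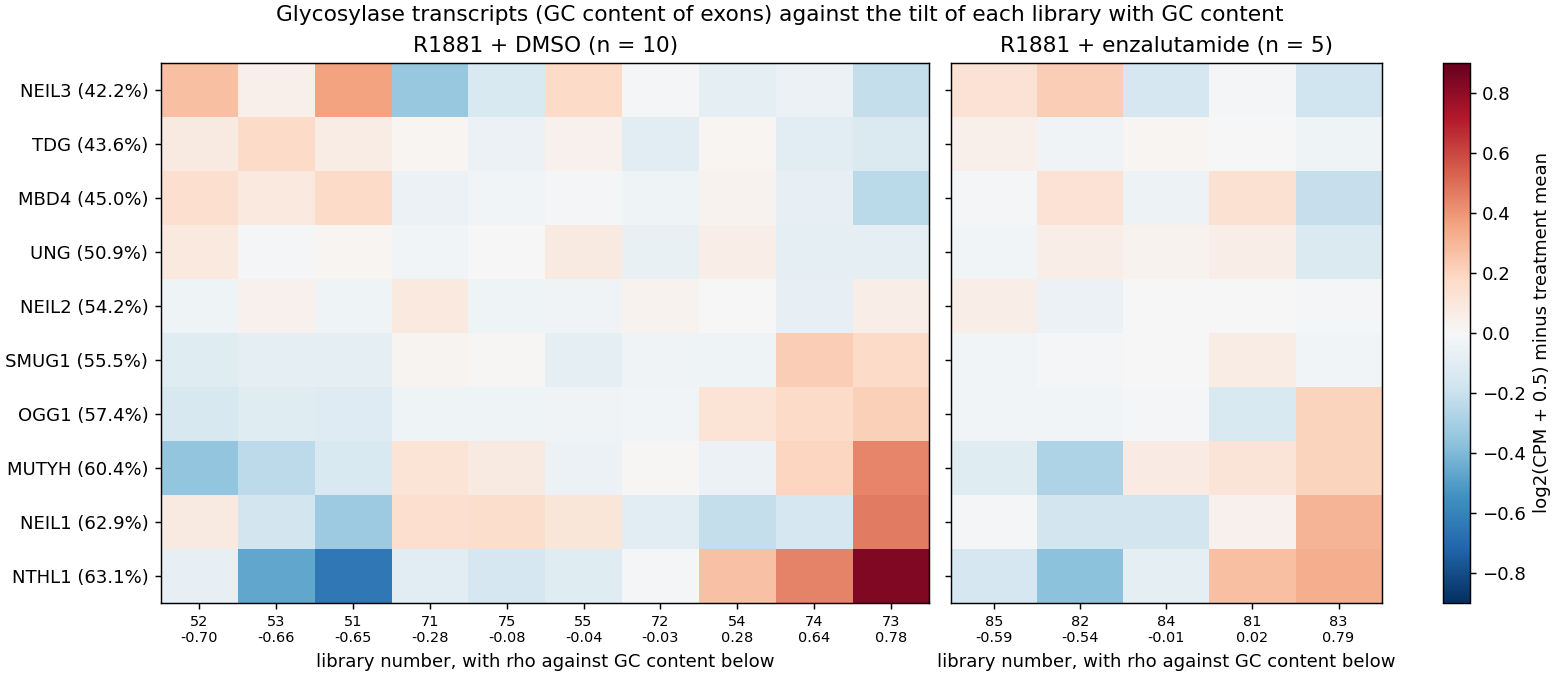
Deviation of log2(CPM + 0.5) from the treatment mean (colour) for each glycosylase (rows, by mean GC content of its annotated transcripts) in each library (columns, by Spearman's rho of all gene deviations with GC content). NTHL1 and MUTYH are high in R1881 + DMSO library 73 (rho 0.78) and low in libraries of negative rho, NEIL3 and MBD4 tend the other way, and NEIL2 shows little variation.

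The genes whose within-treatment deviations were most like those of a glycosylase were listed for the 8 members with at least 100 reads at the median in both treatments, over 15 libraries and 12163 genes. For UNG these were KIF2C (r = 0.91), BUB1 (r = 0.90) and THUMPD2 (r = 0.88), for TDG DSC2 (r = 0.96), CFAP97 and EMB, for SMUG1 LMBR1L (r = 0.91), ANKZF1 and TMEM53, and for MBD4 RNF139 (r = 0.96), VAMP3 and SSBP2. For OGG1 they were DLG5 (r = 0.98), SMG5 and DNM2, for MUTYH CDK2AP2 (r = 0.96), PPFIA3 and PEPD, for NTHL1 CIB1 (r = 0.97), ZNF574 and CNN2, and for NEIL2 NICN1 (r = 0.81), R3HDM2 and LMTK2. The lists of OGG1, MUTYH and NTHL1 consisted of genes with 56.6% to 63.3% GC and those of TDG of genes with 37.6% to 40.9% GC. The genes most like UNG (50.9% GC) ranged from 40.4% to 50.3% GC and those most like NEIL2 (54.2%) from 46.9% to 56.2%. Of the genes most like UNG, KIF2C (log2 -0.87) and BUB1 (log2 -0.88) were lower with enzalutamide and THUMPD2 was higher (log2 0.57).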

How the data were processed

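Polyadenylated RNA of LNCaP cells (TruSeq Stranded mRNA, HiSeq2500, single-end) was measured in 15 libraries, grouped by their labels. The study's text gives the number of libraries per treatment the other way round, and the labels were followed. The authors used bcl2fastq 2.17, aligned them to GRCh38 with STAR, used featureCounts for counting, and deposited 1 normalised signal per gene and library, called CPM. What was not given in the sources used here are other tool versions, annotation, strand setting, choice of genes and library scaling. The deposited signal summed to between 985580 and 1078567 per library, so it was not scaled to plain totals. Within a tolerance of 0.01 reads, 100% of values were whole reads. No column lacked a sample (0). All 55 pairs of libraries of one treatment differed beyond sampling noise (lowest chi-square per degree of freedom 1.63), and none was counted as a repeat.

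The members, lists and tests were chosen with earlier results of these data known. The named genes are the 10 members, the lowest and highest of the later-step list with MPG, APEX1, POLB, XRCC1, LIG1, LIG3, PARP1 and FEN1, genes overlapping a member, likeness genes and check genes. APEX2 was added after its values were seen. The design assumed CPM, and the deposited values were used unchanged and tested with limma 3.58.1 in R 4.3.3 on log2(CPM + 0.5) (a trend in the variance, genes with a mean of 0.5 CPM or more, no covariate, Benjamini-Hochberg adjusted p under 0.05). Fold changes on this scale understate those of low genes. Ratios were tested by exact permutation in SciPy 1.17.1. Alternatives were pseudocounts of 0.1 and 1, no filter or a mean CPM of at least 5, TMM and median-ratio factors, totals set to 1000000, edgeR 4.0.16 (quasi-likelihood) and DESeq2 1.42.0 on recovered reads, 2 replicate blocks, each R1881 + DMSO series alone and each library left out. Removal of the GC trend (spline with 5 degrees of freedom) and leaving out the libraries most tilted by GC content were added after the data were seen. Positions, exons and GC content are from GENCODE 44 on GRCh38, to which 13829 of 17272 genes (80.1%) matched. The GC content of a gene is the unweighted mean over its annotated transcripts. Title numbers (r of deviations from -0.11 to 0.13, over 0.1 in 1 of 5 pairs) and last digits of library numbers (r from -0.64 to 0.84) did not pair the libraries. The number of libraries limits precision, as does counting error for NTHL1, NEIL1 and NEIL3.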

Additional observations from a re-analysis of the deposited data

Results flagged for a closer look

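The log2 ratio of UNG to TDG in R1881 + DMSO replicate 7 stood apart from the other R1881 + DMSO libraries. It was -0.64 in this library, and the nearest of the others was at -0.51, a gap of 0.558 of the whole range of the 10 libraries, past the 95% limit of Dixon's test. This was 1 of 34 groups of values examined, and chance alone would set apart about 1 in 20 groups, or 1.7 here. TDG was highest in this library among the R1881 + DMSO libraries, at 104.2 CPM. Without it the difference of the UNG to TDG ratio between treatments was -0.08 and passed the exact permutation test (adjusted p = 0.0227), where it was -0.06 with all libraries (exact permutation, adjusted p = 0.176).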

How the results depend on the processing

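Over 30 alternatives, 4 to 6 glycosylases were lower and 2 higher, and UNG, SMUG1, TDG, NEIL1, NEIL2 and NEIL3 kept direction and call in all of them. The count of all genes called ranged from 8297 to 10917, and with totals set to 1000000 the split moved from 5577 lower and 5083 higher to 4288 lower and 6629 higher, while the median of all genes moved from -0.01 to 0.07. The call of OGG1 depended on 17 alternatives. The value of MUTYH reversed to 0.0778 against libraries 51 to 55 alone, and that of NTHL1 to -0.17 against libraries 71 to 75 alone, to -0.0344 with the replicate block by title number, and to between -0.0448 and 0.13 with single libraries left out (negative without R1881 + DMSO replicates 7 or 9 or enzalutamide replicates 2 or 3). The cause was not tested. The OGG1 to MUTYH difference reversed to 0.0406 against libraries 71 to 75 alone, and leaving out single libraries moved UNG to TDG between -0.0864 and -0.0403. With the replicate block by title number, which leaves 5 pairs of libraries and cannot reach the threshold, the ratio differences were -0.60 for UNG to SMUG1, -0.20 for TDG to MBD4, -1.14 for NTHL1 to NEIL1, 1.28 for NEIL1 to NEIL2 and 2.02 for NEIL1 to NEIL3. The numbers do not pair the libraries, and the block by last digit changed no glycosylase call. Without the 8 libraries most tilted by GC content (adjusted p = 0.0667, by exact permutation too few to pass) they were -0.64, -0.23, -0.88, 1.22 and 2.03 in the same order, and TDG to MBD4 was -0.18 against libraries 51 to 55 alone (exact permutation, adjusted p = 0.0556).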

Other observations

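APLF, an end-processing factor of single-strand break repair and the 1 gene of the later-step list below the filter on low values, was named after its values were seen. It lay between 0 and 0.176 CPM in the 10 R1881 + DMSO libraries and between 0.465 and 1.18 CPM in the 5 enzalutamide libraries, without overlap. The groups did not overlap for 37.2% of all genes tested. Since 1 read stood for 0.0392 to 0.0677 CPM, the R1881 + DMSO values of APLF rest on a few reads at most. With no filter on low values 3 genes of that list were higher in place of 2.

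In the library R1881 + DMSO replicate 6 (number 73), NTHL1 reached its highest value of 9.72 CPM and MUTYH its highest of 18.7 CPM. OGG1 was there at its highest of 17.8 CPM and NEIL1 at its highest R1881 + DMSO value of 5.58 CPM. MBD4 was at its lowest R1881 + DMSO value of 29.6 CPM. This library had the highest rho with GC content of the R1881 + DMSO libraries, 0.78. The genes at their highest have 57.4% (OGG1) to 63.1% (NTHL1) GC, and MBD4 has 45.0%. The part of this tilt in these values was not tested.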
